A study of Mus musculus with 8 samples.

Results

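The 39 genes described here encode the proteins that license, open and copy DNA, supply its building blocks and take cells into S phase. They were taken by name from a list covering replication origins, the replicative helicase, polymerases, nucleotide supply and G1/S control, and all 39 were found among the 55335 gene identifiers of the deposited table. Levels were measured by RNA-seq in RAW264.7, a mouse macrophage-like cell line. Cells were kept for 3 days either with TABS, the Trio-Active bone scaffold, or with HA/Mg scaffolds, made of hydroxyapatite doped with Mg2+. Each group had 4 libraries, numbered replicate 5 to replicate 8 in the sample titles. The comparison asks how macrophage-like cells differ between the TABS and HA/Mg scaffolds. No library of cells without a scaffold was analysed here. The make-up of TABS is not stated in the labels. Both groups are a single transformed line, which divides in culture. Nothing says that the libraries came from separate cultures, so p-values measure only the spread between libraries, which may be technical. The library names carry H for TABS and L for HA/Mg. Since H might equally mean HA, the labels could have been swapped, and all directions below would then turn round.

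DNA is copied once per cell cycle. In G1 the origin recognition complex, with CDC6 and CDT1, loads the ring-shaped MCM2 to MCM7 helicase onto origins; at the start of S phase CDC45 and the GINS complex join it and the ring unwinds DNA. Polymerase alpha-primase lays down primers, polymerases delta and epsilon extend them, PCNA clamps the polymerases to DNA after loading by replication factor C, and FEN1 and DNA ligase I join the lagging-strand pieces. Many of these genes are transcribed at the G1/S border under E2F factors, which are freed when cyclin-dependent kinases inactivate the retinoblastoma protein.

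The table gives FPKM, in which fragments are divided by transcript length and library total, so levels may be set side by side between genes. All 8 macrophage markers examined, among them Adgre1, Csf1r and Lyz2, were present in every library, at 5.16 to 1595.1 FPKM. Of them 3 were higher with TABS, against 5.07% of all genes tested, and 0 were lower, against 13.1%, by the test described below. Those 3 were Cd68 (log2 change 0.26 ± 0.06, limma adjusted p = 0.0197), Csf1r (0.22 ± 0.04, adjusted p = 0.0112) and Cd14 (0.44 ± 0.09, adjusted p = 0.0168). The summed level of the 8 markers was 2436.3 to 2737.3 FPKM in TABS libraries and 2006.1 to 2401.4 FPKM in HA/Mg libraries. These sums did not overlap and were opposite in direction to the members below. Lyz2 was the largest part of the sum, with means of 1417.6 FPKM with TABS and 1249.1 FPKM with HA/Mg, and its groups overlapped. The markers not called had log2 changes of 0.25 (Adgre1), 0.18 (Lyz2), 0.10 (Fcgr1), -0.08 (Itgam) and -0.12 (Ptprc). The part of the markers in the members' differences was not tested. Of 15 markers of T cells, B cells, fibroblasts, osteoblasts, endothelium and epithelium, 8 were at 0 in every library and none exceeded 0.186 FPKM. Their summed level was 0.142 to 0.254 FPKM in TABS libraries and 0.124 to 0.26 FPKM in HA/Mg libraries. The spacing of low values implied 19600000 to 23500000 fragments per library, an estimate. At that depth the member with the fewest fragments among those tested, Orc6, held at least 240 fragments in each library, a counting error of 6.45%. On the first principal component of all tested genes, HA/Mg replicate 6 lay nearer to the TABS libraries than the other HA/Mg libraries did.

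With TABS, 14 of the 38 testable members were lower and 0 were higher. Over all 10161 genes tested by the same rule, 13.1% were lower and 5.07% were higher, 18.1% in either direction. The balance over all genes moved with the scaling: 1327 were lower and 515 higher as deposited, 1033 and 862 after median-of-ratios scaling, 1192 and 806 after quantile normalization, and 1549 and 251 with equal sums, and in each of these 0 members were higher. The differences were small: other than Fen1, the lower members were 1.15-fold to 1.58-fold higher in HA/Mg libraries, with log2 changes of -0.59 to -0.20. Each log2 change is the TABS mean minus the HA/Mg mean of log2(FPKM + 1), with its standard error, and a gene is called lower or higher at an adjusted p under 0.05 by limma over all genes tested. The direction was broader than the calls: 34 of 38 members had a negative log2 change, against 57.7% of all genes. The median log2 change was -0.16 for the members and -0.04 for all genes tested. At an unadjusted p under 0.05 there were 20 members, a count with no share of all genes to set beside it. In 16 members all 4 TABS libraries lay below all 4 HA/Mg libraries, an arrangement found in 15.0% of all genes, and in 0 members was it the other way round, against 8.05% of all genes. In these cultures fewer cells in S phase and less RNA per cell cannot be told apart.

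**Figure D1:**
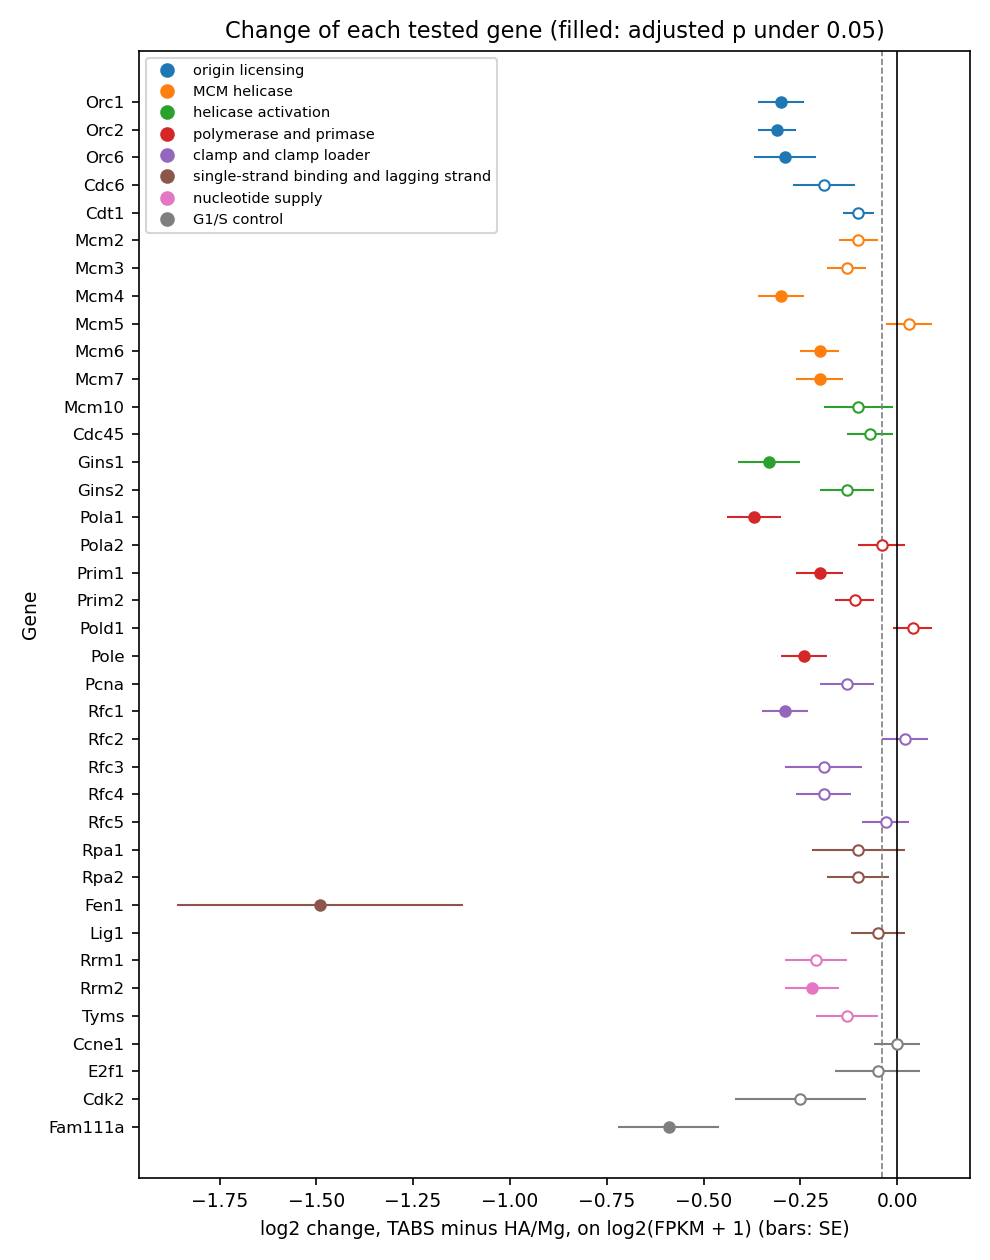
Log2 change (TABS minus HA/Mg, log2(FPKM + 1) scale) of the 38 tested members, grouped by role, with standard errors (n = 4 libraries per group), filled points for the 14 called lower, and a dashed line at the median of all genes, -0.04. Nearly all points lie left of 0, Fen1 lies farthest left at -1.49 with the widest error, and Mcm5, Pold1, Rfc2 and Ccne1 lie at or just right of 0.

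The number of calls moved with single libraries and with a correction for transcript make-up. Leaving out HA/Mg replicates 5, 7 and 8 in turn left 1, 2 and 2 members lower, leaving out TABS replicates 5 and 6 left 7 and 6, and leaving out HA/Mg replicate 6 gave 17. Without HA/Mg replicates 5, 7 and 8 this was 2.63%, 5.26% and 5.26% of members, near the 3.16%, 3.42% and 5.02% of all genes that were lower in the same fits. Without TABS replicates 5 and 6 it was 18.4% and 15.8% of members, against 6.22% and 8.42% of all genes, and without HA/Mg replicate 6 it was 44.7% of members, against 24.1% of all genes. Orc2 alone stayed lower whichever library was left out. Taking the trends with length and GC content of the transcripts out of each library left 3 members lower, Fen1, Fam111a and Cdt1, that is 7.89% of members against 3.78% of all genes, while 0 members and 2.59% of all genes were higher.

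Gene positions are those of GENCODE M21 on GRCm38. Of the origin licensing genes 3 of 5 were lower, with a median log2 change of -0.29. Orc1 (ENSMUSG00000028587, chr4:108579423-108614833, plus strand) encodes the largest subunit of the origin recognition complex and is itself an E2F target. Its levels were 4.74, 5.02, 5.23 and 5.45 FPKM in TABS libraries, against 7.12, 6.05, 6.31 and 6.65 FPKM in HA/Mg libraries. Every TABS library was below every HA/Mg library, and Orc1 fell by 0.30 ± 0.06 on the log2 scale (limma adjusted p = 0.0176). Orc2 (ENSMUSG00000026037, chr1:58462771-58505109, minus strand) encodes a core subunit of the same complex. Orc2 stood at 13.8, 14.5, 13.2 and 14.7 FPKM in TABS replicates 5 to 8, against 18.3, 17.2, 18.2 and 16.9 FPKM in HA/Mg replicates 5 to 8. The groups were again apart, and Orc2 fell by 0.31 ± 0.05 on the log2 scale (limma adjusted p = 0.0094). Orc6 (ENSMUSG00000031697, chr8:85299632-85308278, plus strand), the smallest subunit, was lower as well. In TABS libraries Orc6 had 7.62, 9.02, 8.2 and 9.94 FPKM, against 11.3, 10.1, 11.0 and 10.7 FPKM in HA/Mg libraries. The gap between the highest TABS library and the lowest HA/Mg library was narrow, and Orc6 fell by 0.29 ± 0.08 on the log2 scale (limma adjusted p = 0.0357). Orc6 shares 171 bases of exon with Vps35 on the opposite strand, which was also lower, with a mean of 20.9 FPKM with TABS and 26.1 FPKM with HA/Mg (log2 change -0.31 ± 0.06, limma adjusted p = 0.0135). Exons of all Orc2 transcripts together share 1150 bases with Nif3l1, also on the opposite strand, equal to 32.3% of the length of the longest Orc2 transcript. Nif3l1 was not called (log2 change -0.10 ± 0.08, limma adjusted p = 0.368). Whether strand was used in counting is not stated in the labels, so reads of such partners cannot be told apart.

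The loading factors that work with this complex were not called. Cdt1, which brings the MCM ring to the origin, had 20.3, 20.2, 19.3 and 19.7 FPKM in TABS libraries, against 22.2, 21.1, 20.4 and 22.2 FPKM in HA/Mg libraries. All TABS libraries were lower than all HA/Mg libraries, by little, and the change was not called (log2 change -0.10 ± 0.04, limma adjusted p = 0.121). With length and GC trends removed its log2 change was -0.19 ± 0.04 (limma adjusted p = 0.0322), a call gained. Cdc6, the ATPase that loads the ring together with ORC, had 6.76, 7.12, 8.44 and 8.32 FPKM in TABS libraries, against 9.26, 7.99, 9.37 and 8.83 FPKM in HA/Mg libraries. The groups overlapped and Cdc6 was not called (log2 change -0.19 ± 0.08, limma adjusted p = 0.119).

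The MCM ring was uneven, with 3 of its 6 subunits lower and a median log2 change of -0.17. The subunits enter the ring in equal numbers, and each is an ATPase of the same family. Mcm4 (ENSMUSG00000022673, chr16:15623897-15637400, minus strand) was the most changed. Its levels were 30.9, 31.8, 35.2 and 36.7 FPKM in TABS libraries, against 42.2, 38.0, 43.3 and 42.4 FPKM in HA/Mg libraries. The groups were apart, and Mcm4 fell by 0.30 ± 0.06 on the log2 scale (limma adjusted p = 0.0192). Mcm6 (ENSMUSG00000026355, chr1:128331590-128359664, minus strand), its neighbour in the ring, was lower too. Mcm6 stood at 48.4, 48.0, 55.1 and 52.7 FPKM in TABS replicates 5 to 8, against 59.8, 57.9, 60.3 and 56.3 FPKM in HA/Mg replicates 5 to 8. TABS replicate 7 came closest to the HA/Mg libraries without reaching them, and Mcm6 fell by 0.20 ± 0.05 on the log2 scale (limma adjusted p = 0.0346). Mcm7 (ENSMUSG00000029730, chr5:138164583-138172422, minus strand), whose introns host a cluster of microRNAs, completed the called subunits. In TABS libraries Mcm7 had 32.1, 32.9, 37.2 and 37.7 FPKM, against 41.1, 39.3, 39.5 and 41.6 FPKM in HA/Mg libraries. In all 4 TABS libraries Mcm7 was below the HA/Mg libraries, and Mcm7 fell by 0.20 ± 0.06 on the log2 scale (limma adjusted p = 0.0425). It shares exon sequence with Ap4m1 and Cops6 on the opposite strand, neither of which was called (adjusted p = 0.84 and 0.351, limma).

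The remaining ring subunits were not called. Mcm2 had 37.0, 38.1, 41.4 and 40.7 FPKM in TABS libraries, against 42.8, 41.7, 41.0 and 42.5 FPKM in HA/Mg libraries, with overlap at TABS replicate 7 alone (log2 change -0.10 ± 0.05, limma adjusted p = 0.163). Mcm3 had 61.3, 55.3, 60.4 and 59.0 FPKM in TABS libraries, against 65.7, 60.1, 66.0 and 67.8 FPKM in HA/Mg libraries, where HA/Mg replicate 6 fell below TABS replicates 5 and 7 (log2 change -0.13 ± 0.05, limma adjusted p = 0.0907). Mcm3 became lower without HA/Mg replicate 6 (log2 change -0.17, limma adjusted p = 0.0248). Mcm5, the most abundant member of all, did not follow Mcm4, Mcm6 and Mcm7. Its levels were 90.5, 97.5, 108.3 and 105.4 FPKM in TABS libraries, against 98.3, 97.0, 98.1 and 99.1 FPKM in HA/Mg libraries. The TABS libraries lay on both sides of the closely grouped HA/Mg libraries, and Mcm5 averaged 100.4 ± 8.05 FPKM with TABS and 98.1 ± 0.847 FPKM with HA/Mg (SD, n = 4 each; log2 change 0.03 ± 0.06, limma adjusted p = 0.738). Its sign was negative after scaling to equal sums, after quantile normalization, without TABS replicate 7, and after removal of length and GC trends with library means kept.

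**Figure D2:**
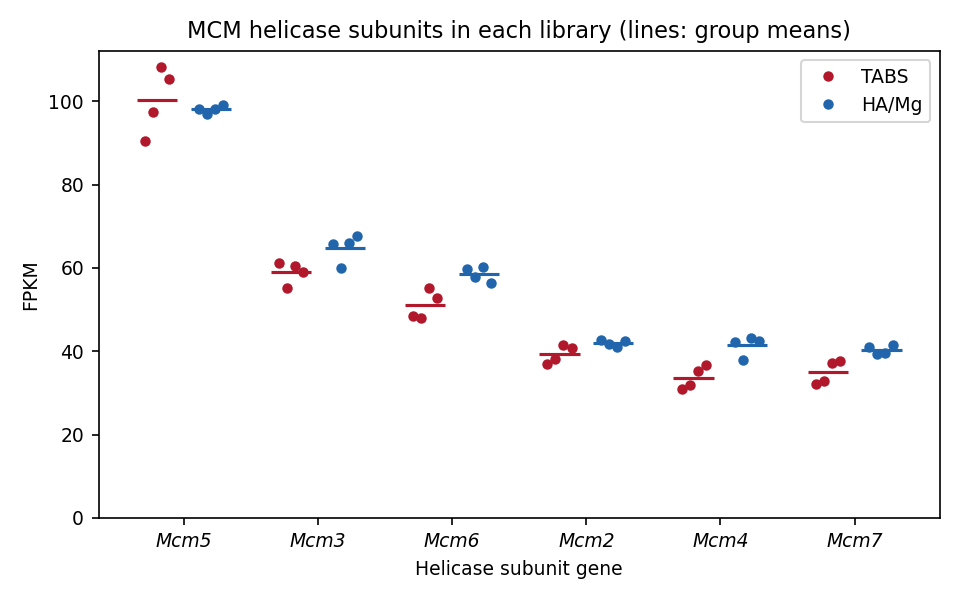
FPKM of the 6 MCM subunits in each of the 4 TABS and 4 HA/Mg libraries, with group means. Mcm4, Mcm6 and Mcm7 separate between TABS and HA/Mg, while the TABS values of Mcm5, 90.5 to 108.3 FPKM, lie on both sides of the HA/Mg values, 97.0 to 99.1 FPKM.

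Ratios between subunits of one complex compare genes within a library. The fold values here are ratios of FPKM and do not depend on the library total. The log2 ratios are differences of log2(FPKM + 1), so they keep some dependence on that total, and those of low genes are understated. The order Mcm5 over Mcm3 over Mcm6 held in all 8 libraries, but the ring's transcripts were more unequal with TABS: the highest subunit stood 2.88-fold to 3.08-fold above the lowest in TABS libraries and 2.38-fold to 2.55-fold in HA/Mg libraries. The log2 ratio of Mcm4 to Mcm5 averaged -1.55 ± 0.05 with TABS and -1.22 ± 0.07 with HA/Mg (SD, n = 4 each), a difference of -0.32. In the polymerase alpha complex the log2 ratio of Pola1 to Pola2 averaged -0.96 ± 0.14 with TABS and -0.63 ± 0.06 with HA/Mg, a difference of -0.33. For the clamp loader, Rfc1 to Rfc2 gave -0.73 ± 0.11 with TABS and -0.41 ± 0.08 with HA/Mg, a difference of -0.31. With length and GC trends removed these differences were -0.19, -0.20 and -0.23, each with an adjusted p of 0.162 over the 34 pairs (exact permutation test). Of 34 such pairs in 4 complexes, examined after their values were seen, 13 had groups that did not overlap. Each of those had an exact two-sided permutation p of 0.0286, the smallest that 4 against 4 libraries allow, and an adjusted p of 0.0747 over the 34 pairs, so none passed. In 11 of the 13 the subunit with the lower GC content was the one lower with TABS, and after removal of length and GC trends 6 pairs still did not overlap: Mcm2 to Mcm5, Mcm2 to Mcm7, Mcm4 to Mcm5, Mcm5 to Mcm7, Pola1 to Pola2 and Rfc1 to Rfc2.

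Of the proteins that switch the loaded ring on, 1 of 4 was lower, and the role's median log2 change was -0.12. Gins1 (ENSMUSG00000027454, chr2:150905400-150931280, plus strand) encodes a subunit of GINS, which joins the ring at firing. Gins1 stood at 11.0, 13.4, 14.8 and 14.5 FPKM in TABS replicates 5 to 8, against 16.9, 18.2, 16.8 and 16.2 FPKM in HA/Mg replicates 5 to 8. TABS replicate 5 was lowest and no library crossed, and Gins1 fell by 0.33 ± 0.08 on the log2 scale (limma adjusted p = 0.0303). Gins2, another subunit of the same complex, had 9.02, 8.01, 9.18 and 10.3 FPKM in TABS libraries, against 10.4, 9.62, 9.6 and 10.5 FPKM in HA/Mg libraries. TABS replicate 8 reached into the HA/Mg range and Gins2 was not called (log2 change -0.13 ± 0.07, limma adjusted p = 0.235). Exons of Gins2 share 2758 bases with Gse1 on the opposite strand, equal to 70.7% of the length of the longest Gins2 transcript. Gse1 had 1.48 to 2.03 FPKM. Cdc45, a component of the active helicase and the most abundant of this role, had 41.9, 46.8, 48.6 and 48.1 FPKM in TABS libraries, against 52.1, 47.2, 47.9 and 48.1 FPKM in HA/Mg libraries, with mixed libraries (log2 change -0.07 ± 0.06, limma adjusted p = 0.358). Mcm10, a factor needed to activate the helicase, was the least abundant, with 4.91, 4.8, 4.38 and 5.2 FPKM in TABS libraries, against 5.46, 4.21, 5.58 and 5.88 FPKM in HA/Mg libraries. HA/Mg replicate 6 was the lowest of all 8 libraries for Mcm10 (log2 change -0.10 ± 0.09, limma adjusted p = 0.441), and without it Mcm10 was called lower (log2 change -0.19, limma adjusted p = 0.0484).

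Among polymerase and primase subunits 3 of 6 were lower, with a median log2 change of -0.16. Pola1 (ENSMUSG00000006678, chrX:93304767-93632155, minus strand), the catalytic subunit of polymerase alpha, had the lowest level of the tested members. In TABS libraries Pola1 had 3.32, 3.64, 3.25 and 3.93 FPKM, against 5.14, 4.38, 4.9 and 5.04 FPKM in HA/Mg libraries. The groups were well apart, Pola1 was 1.38-fold higher in HA/Mg libraries, and Pola1 fell by 0.37 ± 0.07 on the log2 scale (limma adjusted p = 0.0137). Pole (ENSMUSG00000007080, chr5:110286306-110337474, plus strand), the catalytic subunit of the leading-strand polymerase epsilon, was lower too. Its levels were 5.92, 5.73, 6.37 and 6.55 FPKM in TABS libraries, against 7.65, 6.79, 7.41 and 7.85 FPKM in HA/Mg libraries. HA/Mg replicate 6 was nearest to the TABS libraries, and Pole fell by 0.24 ± 0.06 on the log2 scale (limma adjusted p = 0.0333). Prim1 (ENSMUSG00000025395, chr10:128015168-128030037, plus strand), the catalytic primase subunit, was called at the edge of the threshold. Prim1 stood at 5.91, 6.09, 6.56 and 6.86 FPKM in TABS replicates 5 to 8, against 7.3, 7.02, 7.98 and 7.57 FPKM in HA/Mg replicates 5 to 8. The highest TABS library was just below the lowest HA/Mg library, and Prim1 fell by 0.20 ± 0.06 on the log2 scale (limma adjusted p = 0.0496). Its partner Prim2, the larger primase subunit, had 11.1, 10.9, 11.5 and 11.2 FPKM in TABS libraries, against 12.3, 12.7, 12.0 and 11.7 FPKM in HA/Mg libraries. Prim2 groups did not overlap either, but Prim2 was not called (log2 change -0.11 ± 0.05, limma adjusted p = 0.107). Pola2, the accessory subunit of polymerase alpha, had 7.24, 7.57, 8.5 and 7.92 FPKM in TABS libraries, against 8.2, 7.83, 7.8 and 8.48 FPKM in HA/Mg libraries, fully mixed (log2 change -0.04 ± 0.06, limma adjusted p = 0.613). Pold1, the catalytic subunit of polymerase delta and the most abundant of the role, had 24.0, 24.0, 27.1 and 25.9 FPKM in TABS libraries, against 26.2, 23.7, 24.4 and 23.8 FPKM in HA/Mg libraries. Pold1 was not called and its estimate was positive (log2 change 0.04 ± 0.05, limma adjusted p = 0.626), turning negative after scaling to equal sums or removal of length and GC trends.

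Of the sliding clamp and its loader, 1 of 6 was lower, with a median log2 change of -0.16. Rfc1 (ENSMUSG00000029191, chr5:65261850-65335670, minus strand) encodes the large subunit specific to the loader of PCNA. In TABS libraries Rfc1 had 11.0, 11.4, 10.7 and 12.6 FPKM, against 14.4, 13.1, 14.6 and 14.6 FPKM in HA/Mg libraries. All TABS libraries were lower, and Rfc1 fell by 0.29 ± 0.06 on the log2 scale (limma adjusted p = 0.0175). The small subunits are shared among loaders. Rfc4, with 23.3, 25.8, 25.9 and 28.2 FPKM in TABS libraries, against 29.7, 26.2, 31.1 and 31.3 FPKM in HA/Mg libraries, was the most abundant of them and overlapped only through HA/Mg replicate 6 (log2 change -0.19 ± 0.07, limma adjusted p = 0.0919). Rfc4 shares 194 bases of exon with Eif4a2 on the opposite strand, which was called lower (log2 change -0.32 ± 0.09, limma adjusted p = 0.0406). Rfc3, the least abundant, had 5.67, 7.87, 7.08 and 8.05 FPKM in TABS libraries, against 8.76, 7.68, 8.1 and 8.44 FPKM in HA/Mg libraries, with TABS replicate 5 well below the others (log2 change -0.19 ± 0.10, limma adjusted p = 0.185). Rfc2 ranged over 17.9 to 20.8 FPKM in TABS libraries and 18.8 to 20.3 FPKM in HA/Mg libraries, and Rfc5 over 10.1 to 11.8 FPKM in TABS libraries and 10.7 to 12.0 FPKM in HA/Mg libraries. The groups overlapped for Rfc2 and for Rfc5 and neither was called, with log2 changes of 0.02 ± 0.06 and -0.03 ± 0.06 (limma adjusted p = 0.805 and 0.769). On the opposite strand Rfc2 shares 952 bases of exon with Lat2, which averaged 29.6 FPKM with TABS and 29.7 FPKM with HA/Mg. Rfc5 shares 499 bases with Wsb2 in the same way. Lat2 and Wsb2 were not called (limma adjusted p = 0.96 and 0.189). Pcna, the clamp itself, had 60.8, 57.8, 66.3 and 64.3 FPKM in TABS libraries, against 75.7, 62.1, 68.2 and 68.1 FPKM in HA/Mg libraries. TABS values were lower on average but HA/Mg replicate 6 lay among them (log2 change -0.13 ± 0.07, limma adjusted p = 0.17). Its processed copy Pcna-ps2 was listed at 9.64 to 12.6 FPKM over the 8 libraries, so reads of Pcna may be shared with it.

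Fen1 (ENSMUSG00000024742, chr19:10199132-10204169, minus strand), the flap nuclease that trims lagging-strand pieces, had the largest log2 change and the least even one. Its levels were 24.8, 6.23, 6.6 and 6.81 FPKM in TABS libraries, against 28.0, 22.7, 29.4 and 31.9 FPKM in HA/Mg libraries. TABS replicates 6 to 8 were close together and far below the other libraries, whereas TABS replicate 5 lay inside the HA/Mg range. Fen1 averaged 11.1 ± 9.15 FPKM with TABS and 28.0 ± 3.9 FPKM with HA/Mg (SD, n = 4 each; log2 change -1.49 ± 0.37, limma adjusted p = 0.0269). Without TABS replicate 5 the log2 change was -1.93 (limma adjusted p = 0.000255), and leaving out any other library except HA/Mg replicate 6 ended the call. Fen1 has 4 annotated transcripts, and 130 bases of their exons overlap Tmem258 on the opposite strand, equal to 5.48% of the length of the longest transcript. Tmem258 had 30.0, 31.6, 39.3 and 37.0 FPKM in TABS libraries, against 30.7, 33.2, 33.3 and 29.6 FPKM in HA/Mg libraries. Tmem258 was not called (log2 change 0.11 ± 0.09, limma adjusted p = 0.373), and it did not show the high value of TABS replicate 5. The part of this overlap in the Fen1 values was not tested.

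The other members of this role were not called. Rpa1, the large subunit of the single-strand binding protein RPA, had 30.7, 31.5, 47.4 and 33.4 FPKM in TABS libraries, against 38.1, 36.4, 38.1 and 38.1 FPKM in HA/Mg libraries. TABS replicate 7 stood above every other library, while the remaining TABS libraries were below all HA/Mg libraries (log2 change -0.10 ± 0.12, limma adjusted p = 0.591). Without TABS replicate 7, Rpa1 was called lower (log2 change -0.24, limma adjusted p = 0.029). Rpa2, its middle subunit, had 17.7, 19.5, 22.8 and 22.6 FPKM in TABS libraries, against 23.2, 22.2, 22.7 and 20.5 FPKM in HA/Mg libraries, and the groups overlapped (log2 change -0.10 ± 0.08, limma adjusted p = 0.395). Lig1, the ligase that seals Okazaki fragments, had 32.3, 28.0, 36.3 and 31.2 FPKM in TABS libraries, against 33.4, 32.4, 31.5 and 34.2 FPKM in HA/Mg libraries, with both groups mixed (log2 change -0.05 ± 0.07, limma adjusted p = 0.674).

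Nucleotide supply gave 1 lower gene of 3 and a median log2 change of -0.21. Rrm2 (ENSMUSG00000020649, chr12:24708241-24714146, plus strand), the regulatory subunit of ribonucleotide reductase whose level follows S phase, was the most abundant of the lower members. Rrm2 stood at 47.2, 50.6, 59.1 and 53.7 FPKM in TABS replicates 5 to 8, against 63.4, 59.4, 60.1 and 63.1 FPKM in HA/Mg replicates 5 to 8. TABS replicate 7 came just below the lowest HA/Mg library, and Rrm2 fell by 0.22 ± 0.07 on the log2 scale (limma adjusted p = 0.0443). Rrm1, the large subunit of the same enzyme, had 29.5, 31.2, 38.0 and 36.5 FPKM in TABS libraries, against 40.5, 38.4, 39.3 and 38.2 FPKM in HA/Mg libraries. Rrm1 also separated the groups without passing the threshold (log2 change -0.21 ± 0.08, limma adjusted p = 0.0823). Tyms, which makes thymidylate, had 3.38, 3.99, 4.25 and 4.57 FPKM in TABS libraries, against 4.42, 4.57, 4.59 and 4.38 FPKM in HA/Mg libraries, with TABS replicate 5 lowest and replicate 8 level with HA/Mg (log2 change -0.13 ± 0.08, limma adjusted p = 0.262).

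In the role listed as G1/S control 1 of 4 tested genes was lower, with a median log2 change of -0.15. That gene was Fam111a, and Ccne1, E2f1 and Cdk2 were not called. Fam111a (ENSMUSG00000024691, chr19:12545740-12589768, plus strand) encodes a protease that binds PCNA in human cells. In TABS libraries Fam111a had 7.14, 8.38, 6.4 and 8.19 FPKM, against 13.0, 8.76, 12.7 and 13.1 FPKM in HA/Mg libraries. HA/Mg replicate 6 lay close to the TABS libraries and far from the other HA/Mg libraries, and Fam111a fell by 0.59 ± 0.13 on the log2 scale (limma adjusted p = 0.0191). Without that library the log2 change was -0.72 (limma adjusted p = 0.00369). Ccne1, the more abundant cyclin E, had 22.6, 23.3, 25.4 and 26.0 FPKM in TABS libraries, against 23.2, 23.6, 24.5 and 25.4 FPKM in HA/Mg libraries, and its group means were almost equal (log2 change 0.00 ± 0.06, limma adjusted p = 0.958). E2f1, the activator that drives many of these genes, had 16.2, 14.5, 11.9 and 17.6 FPKM in TABS libraries, against 15.8, 14.3, 15.0 and 16.6 FPKM in HA/Mg libraries, with TABS replicates 7 and 8 at the low and the high end (log2 change -0.05 ± 0.11, limma adjusted p = 0.788). Cdk2, the kinase partner of cyclin E, had 5.04, 4.93, 5.16 and 5.87 FPKM in TABS libraries, against 6.24, 5.57, 9.89 and 4.82 FPKM in HA/Mg libraries; HA/Mg replicate 7 was high and the groups overlapped (log2 change -0.25 ± 0.17, limma adjusted p = 0.311). Ccne2, the second cyclin E, was the member left out of the test, because it reached 1 FPKM in fewer than 4 libraries. Ccne2 had 0.503, 0.671, 0.654 and 0.779 FPKM in TABS libraries, against 1.5, 0.696, 1.24 and 1.5 FPKM in HA/Mg libraries. Its mean was 0.652 ± 0.113 FPKM with TABS and 1.23 ± 0.377 FPKM with HA/Mg (SD, n = 4 each), and HA/Mg replicate 6 lay within the TABS range. Ccne2 exons share 609 bases with Ints8 on the opposite strand, equal to 20.3% of the length of the longest Ccne2 transcript. Ints8 was more abundant and was called lower, with a mean of 3.45 FPKM with TABS and 4.47 FPKM with HA/Mg (log2 change -0.30 ± 0.07, limma adjusted p = 0.0217).

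**Figure D3:**
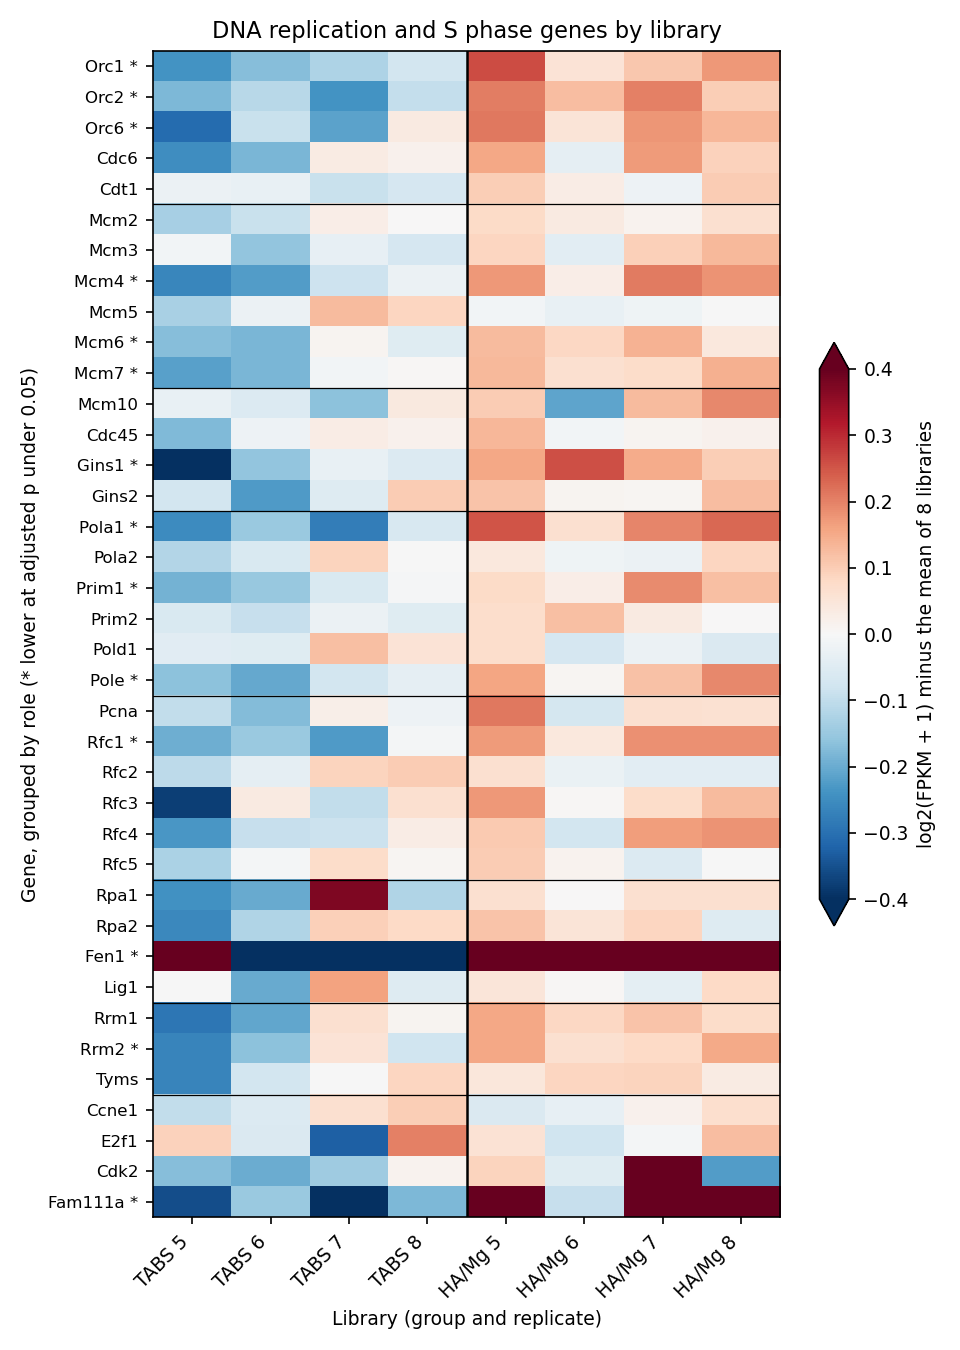
Log2 deviation of each tested member from its mean over the 8 libraries, with members in rows by role and the 4 TABS libraries left of the 4 HA/Mg libraries. TABS replicates 5 and 6 are low for most members, TABS replicates 7 and 8 are mixed, and HA/Mg replicate 6 is the palest HA/Mg column.

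The members did not shift equally in all libraries of a group. Their median log2 deviation from each gene's mean was -0.173, -0.149, -0.025 and 0.001 in TABS replicates 5 to 8, against 0.114, 0.011, 0.088 and 0.099 in HA/Mg replicates 5 to 8. TABS replicates 5 and 6 thus held the low end, and HA/Mg replicate 6 stood below the other HA/Mg libraries. Over all genes tested the medians were -0.015, -0.007, -0.055 and -0.019 in TABS replicates 5 to 8. In HA/Mg replicates 5 to 8 they were 0.032, -0.027, 0.04 and 0.05, so HA/Mg replicate 6 was the low HA/Mg library there too. TABS replicate 5 was the lowest of all libraries for 21 of 38 members, and HA/Mg replicate 6 the lowest HA/Mg library for 22. These lowest libraries were counted for members only. For the 14 lower members the medians were -0.228, -0.160, -0.102 and -0.052 with TABS, against 0.173, 0.060, 0.180 and 0.163 with HA/Mg. For the 24 members not called they were -0.122, -0.081, 0.029 and 0.016 with TABS, against 0.088, -0.014, 0.026 and 0.066 with HA/Mg.

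**Figure D4:**
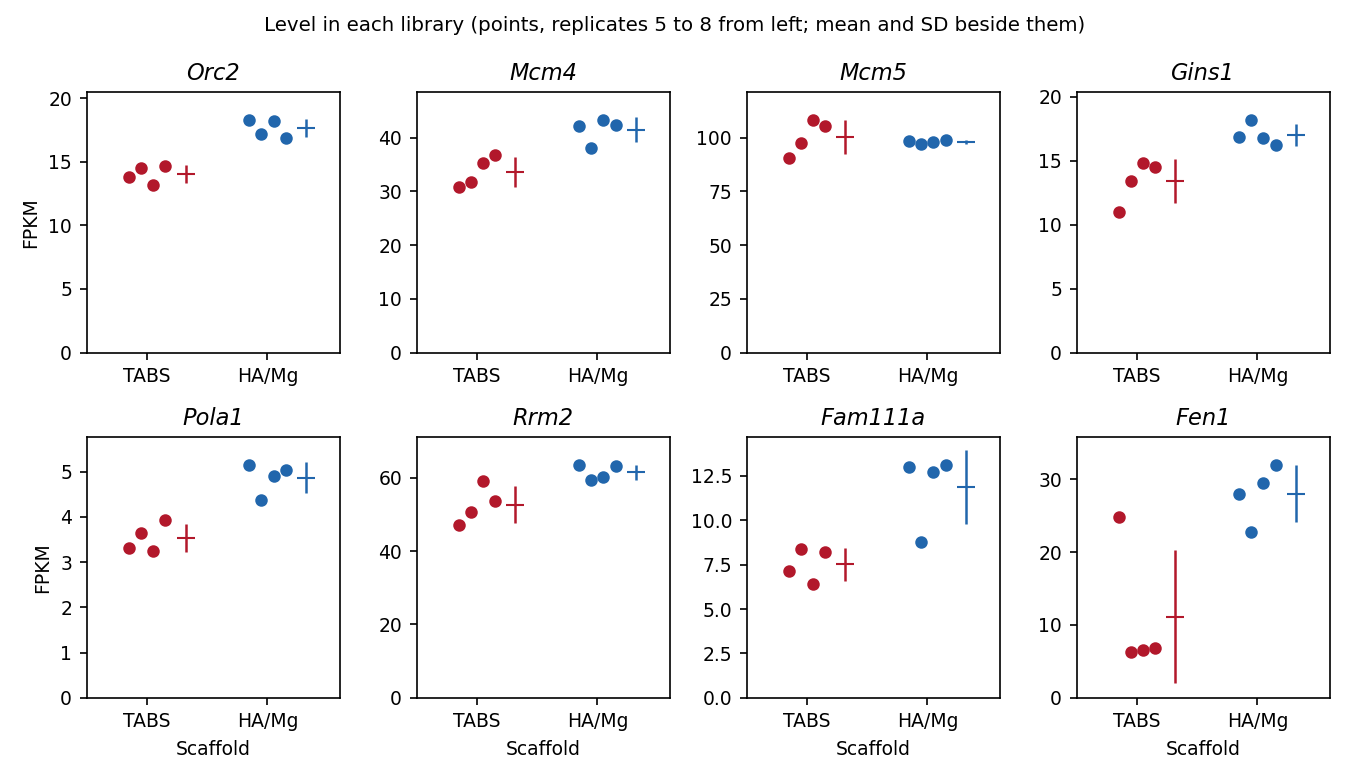
FPKM of 8 members in each of the 4 TABS libraries (left) and the 4 HA/Mg libraries (right), with mean and SD beside the points and axes from 0. Orc2, Mcm4, Gins1, Pola1, Rrm2 and Fam111a separate between the groups, Mcm5 does not, and 1 TABS library of Fen1 lies among the HA/Mg libraries.

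Levels ran widely within this gene set. Mcm5 was highest, at a mean of 99.3 FPKM over the 8 libraries, followed by Pcna at 65.4, Mcm3 at 62.0, Rrm2 at 57.1 and Mcm6 at 54.8 FPKM. Pola1 at 4.20, Tyms at 4.27 and Mcm10 at 5.05 FPKM were the lowest of those tested, between the percentiles 32.5 and 37.4 of all genes tested. In FPKM each of the 6 ring subunits was above the polymerase and primase subunits that are members. This did not hold for subunits outside the members: Pold2 averaged 64.2 FPKM with TABS and 62.4 FPKM with HA/Mg.

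The GC content of a transcript went with its change. Across the 38 members the Spearman correlation of log2 change with GC content was 0.53, and across 10157 tested genes with a known sequence it was 0.54, a description over genes, which share the same libraries. The median GC content was 46.2% for the lower members, 49.9% for the members not called and 49.8% for all genes tested. In the class of lowest GC content, 28.6% to 44.1%, 3 of 7 members were lower, against 30.8% of all genes of that range, and the median log2 change was -0.20 for members and for all genes. Within the range of 44.1% to 48.0% GC, 8 of 11 members were lower, against 21.3% of all genes of that range, with median log2 changes of -0.29 for the members and -0.12 for all genes. Within 48.0% to 51.5% GC, 1 of 9 members was lower, against 9.26% of all genes. From 51.6% to 55.4% GC it was 2 of 8 members, against 3.0% of all genes, and from 55.4% to 73.7% GC 0 of 3 members, against 0.935% of all genes. Of the 14 lower members, 12 lost their call when length and GC trends were removed, with log2 changes of -0.276 to -0.0551 and limma adjusted p of 0.0525 to 0.589. With transcript length the Spearman correlation was -0.05 among members and -0.31 among all genes tested. The part of GC content in these calls was not tested beyond this removal of trends.

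**Figure D5:**
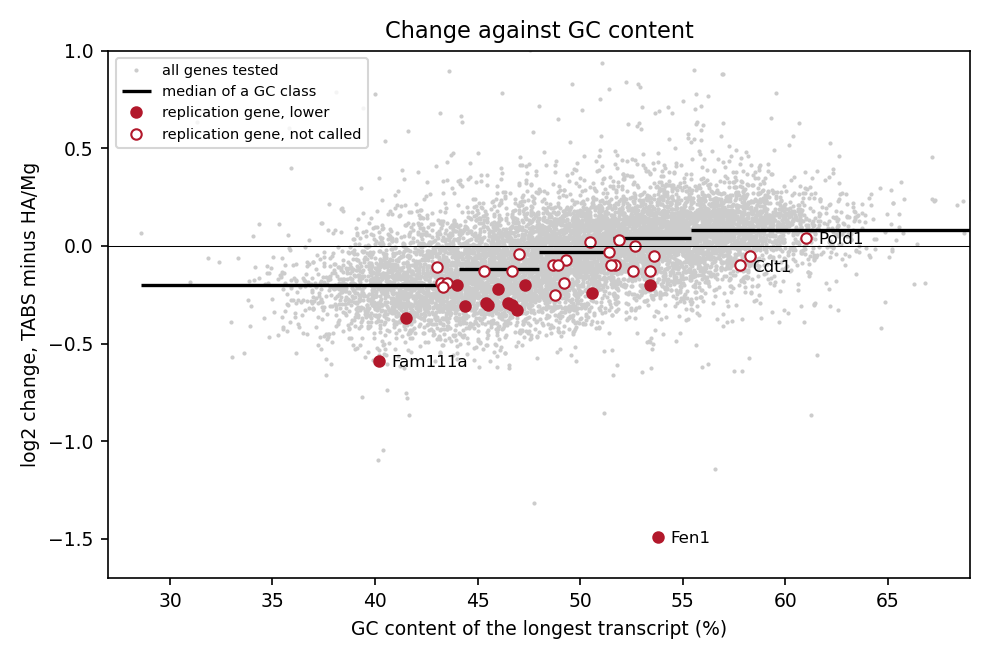
Log2 change (TABS minus HA/Mg) of all tested genes (grey dots) and of the members (filled: lower, open: not called) against the GC content of the longest transcript in percent, with black bars at the median of all genes in 5 classes of GC content; 21 genes lie outside the axes. The medians of all genes climb with GC content, and Fen1 and Fam111a lie far below them.

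The promoters of these genes were searched for 3 words known from cell-cycle promoters. RefSeq promoters on GRCm38.p6 were found for 32 members, as the 250 bases before each start. The E2F words searched were TTTCCCGC, TTTGGCGC, TTTCGCGC and TTTGCCGC, on both strands, overlaps counted. They stood in 8 of 32 members (25.0%), against 4.27% of 7425 tested genes and 2.16% of all 27025 genes with a promoter there. Among them were Orc1, Mcm6, Mcm7 and Pola1 of 11 lower members, and Mcm5, Cdc6, Cdk2 and Rfc3 of 21 not called. CCAAT stood in 65.6% of members, against 41.1% of tested genes, and in 10 of 11 lower members and 11 of 21 members not called. TTTGAA, the word of the cell-cycle homology region, stood in 9.38% of members, against 12.7% of tested genes, and in 7 of 17 mitosis genes. The 4 lower members with an E2F word and Mcm5, which has 2 but was not called, are shown with Fam111a, lower without one. The E2F words are in capitals, joined where they overlap, and each sequence is read on the strand of its gene.
Orc1, chr4:108579204-108579453, plus strand: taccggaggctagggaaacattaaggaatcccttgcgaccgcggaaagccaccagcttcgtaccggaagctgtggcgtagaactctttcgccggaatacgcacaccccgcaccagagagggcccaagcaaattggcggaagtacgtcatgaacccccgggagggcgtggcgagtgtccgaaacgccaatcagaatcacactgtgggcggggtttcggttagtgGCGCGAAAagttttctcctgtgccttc
Mcm6, chr1:128359706-128359955, minus strand: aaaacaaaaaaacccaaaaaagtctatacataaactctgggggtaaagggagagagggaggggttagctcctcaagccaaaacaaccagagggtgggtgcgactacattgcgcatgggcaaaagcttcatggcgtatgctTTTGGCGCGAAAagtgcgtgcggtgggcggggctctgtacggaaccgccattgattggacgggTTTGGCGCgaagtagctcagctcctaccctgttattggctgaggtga
Mcm7, chr5:138171884-138172133, minus strand: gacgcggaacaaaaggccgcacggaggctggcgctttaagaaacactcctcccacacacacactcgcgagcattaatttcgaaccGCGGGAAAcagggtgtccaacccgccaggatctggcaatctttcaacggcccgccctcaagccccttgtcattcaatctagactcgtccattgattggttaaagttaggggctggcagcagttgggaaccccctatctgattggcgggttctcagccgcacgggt
Pola1, chrX:93632156-93632405, minus strand: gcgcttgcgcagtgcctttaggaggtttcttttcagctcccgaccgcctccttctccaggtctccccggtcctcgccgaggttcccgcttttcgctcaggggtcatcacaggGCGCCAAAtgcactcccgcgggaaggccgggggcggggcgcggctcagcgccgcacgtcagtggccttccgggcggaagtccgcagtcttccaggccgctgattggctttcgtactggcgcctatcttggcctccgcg
Mcm5, chr8:75109259-75109508, plus strand: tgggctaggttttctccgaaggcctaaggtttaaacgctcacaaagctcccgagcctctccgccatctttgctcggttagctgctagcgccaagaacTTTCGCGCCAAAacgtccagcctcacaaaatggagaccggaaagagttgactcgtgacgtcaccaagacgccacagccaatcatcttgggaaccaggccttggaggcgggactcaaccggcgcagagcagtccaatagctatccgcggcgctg
Fam111a, chr19:12573260-12573509, plus strand: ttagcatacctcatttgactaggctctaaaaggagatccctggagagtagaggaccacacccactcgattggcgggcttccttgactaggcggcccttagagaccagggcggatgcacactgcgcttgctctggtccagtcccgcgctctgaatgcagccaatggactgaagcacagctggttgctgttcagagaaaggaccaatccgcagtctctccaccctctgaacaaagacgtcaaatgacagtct

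Mcm6 and Mcm5 carry the same pair of overlapping words on opposite strands, 103 and 99 bases before the start in Mcm6 and 146 and 142 bases before it in Mcm5, and Mcm6 was lower while Mcm5 was not called. Orc1 has its word 20 bases before the RefSeq start, while that of Mcm7 lies 158 bases and that of Pola1 131 bases before it. Mcm7 has another RefSeq start, whose window, chr5:138171267-138171516, held 0 E2F words. RefSeq and GENCODE starts differ. The Orc1 window reaches past the GENCODE start given above, with its E2F word beyond that start. The Mcm7 and Fam111a windows lie inside the GENCODE spans of these genes. Windows not shown that do so include those of Cdc6, with an E2F word, and E2f1, without one. A match is only a run of letters and says nothing of binding.

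In lists of genes that are not members, 29 of 84 tested genes from licensing to checkpoint were lower and 1 was higher, against 13.1% and 5.07% of all genes. With length and GC trends removed 7 of these 84 were lower, against 3.78% of all genes: 1 of 7 in licensing, 1 of 10 in firing, 1 of 17 in fork genes, 0 of 10 in nucleotide supply, 2 of 9 in chromatin assembly, 2 of 23 in G1/S control and 0 of 8 in checkpoint. The counts below are those without this removal. In the list named other licensing 4 of 7 genes were lower (Mcm8, Orc3, Gmnn and Orc4). That list also holds Mcm8 and Mcm9, whose products are not part of the MCM2 to MCM7 ring. Gmnn, which encodes geminin, the inhibitor of CDT1, averaged 24.4 ± 1.51 FPKM with TABS and 29.8 ± 2.0 FPKM with HA/Mg (limma adjusted p = 0.0194). Firing factors were lower in 4 of 10, led by Ticrr and Topbp1, then Mtbp and Cdc7. Ticrr, which helps CDK fire origins, had 2.57 ± 0.257 FPKM with TABS and 3.77 ± 0.422 FPKM with HA/Mg (limma adjusted p = 0.0154).

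Fork genes were lower in 4 of 17, Clspn, Top1, Tipin and Pole3. Pold4, the smallest subunit of polymerase delta, was the 1 gene that rose: it averaged 37.6 ± 1.76 FPKM with TABS and 29.8 ± 0.416 FPKM with HA/Mg (log2 change 0.33 ± 0.04, limma adjusted p = 0.00851). Chromatin assembly genes were lower in 4 of 9, with Nasp, a histone chaperone, at 8.21 ± 0.847 FPKM with TABS and 12.1 ± 1.25 FPKM with HA/Mg (limma adjusted p = 0.0114), and with Dnmt1, Asf1a and Hells. Checkpoint genes were lower in 4 of 8, Chek1, Atr, Wee1 and Rad17, and all 4 calls ended with length and GC trends removed. Atr reached the level needed for testing through its HA/Mg libraries, at 1.13 to 1.46 FPKM. It had 0.778 to 1.0 FPKM in TABS libraries, so its call rests on values near that limit. G1/S genes outside the members were lower in 8 of 23, led by Ccna2 and Rbl1, then Tfdp1 and Skp2. Ccna2, the S-phase cyclin, averaged 28.3 ± 1.52 FPKM with TABS and 35.7 ± 2.97 FPKM with HA/Mg (limma adjusted p = 0.015). Nucleotide supply was the least changed list, with Dck lower and 1 of 10 in all; Rrm2b followed with log2 change -0.21 ± 0.08 (limma adjusted p = 0.0905).

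Of 20 mitosis genes 16 were lower, with a median log2 change of -0.40, against -0.16 for the members. Among the lower ones Cenpf was near the limit of testing, at 0.738 to 1.04 FPKM in TABS libraries and 1.28 to 2.15 FPKM in HA/Mg libraries. Mki67, the proliferation marker, averaged 10.7 ± 0.777 FPKM with TABS and 17.1 ± 2.15 FPKM with HA/Mg (log2 change -0.62 ± 0.09, limma adjusted p = 0.00859). Next in order of p, not of size, were Hmmr, Top2a and Tpx2, with log2 changes of -0.55, -0.45 and -0.43. With length and GC trends removed, 10 of 20 mitosis genes were lower, against 3 of 38 members and 3.78% of all genes. The difference between the lists was not tested.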

How the data were processed

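RNA-seq libraries of RAW264.7 cells, 4 with TABS and 4 with HA/Mg scaffolds, were grouped by sample title. Per the labels' protocols, RNA was extracted with TRIzol, libraries were made with a NEBNext Ultra kit, and reads were paired-end (NovaSeq). The submitters' processing notes name fastp, STAR, DESeq2 and the build GRCm38; no source used here gives versions, annotation or strand handling. The authors deposited FPKM values for 55335 gene identifiers, of which 55154 matched GENCODE M21.

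The test covered the 10161 genes that reached 1 FPKM in 4 or more libraries, on log2(FPKM + 1), with a pseudocount of 1, by limma 3.58.1 in R 4.3.3 with a mean-variance trend, two-sided, with Benjamini-Hochberg adjustment. This scale understates the change of low genes. Per-library depth was estimated at 19600000 to 23500000 fragments; 33.9% to 35.9% of low values were whole fragments within 0.05, so no count test was run. Ratios within complexes were compared by exact permutation. Alternatives were pseudocounts 0.1 and 0.5, filters, scalings, array weights, a replicate block, removal of length and GC trends (splines with 4 degrees of freedom) and leaving out each library. The procedure was tested on simulated data.

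The members and lists were chosen with earlier results of these data known. All members are accounted for. Per-library values are given for changed members, for the extremes of each role and for members whose call changed under an alternative. In other lists the 2 genes with the smallest p, or up to 4 changed ones, are named.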

Additional observations from a re-analysis of the deposited data

Results flagged for a closer look

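Single libraries stood apart from the other 3 of their group in 6 of the 76 groups examined (38 genes in 2 groups of libraries), where the gap to the nearest library passed Dixon's critical value; chance gives this in about 5% of groups. Among TABS libraries, Fen1 in replicate 5 was high at 24.8 FPKM, with the others at 6.23 to 6.81 FPKM. Rpa1 in TABS replicate 7 was high at 47.4 FPKM, with the others at 30.7 to 33.4 FPKM. HA/Mg replicate 6 was low in 3 of the genes: Fam111a at 8.76 FPKM with the others at 12.7 to 13.1, Rfc1 at 13.1 FPKM with the others at 14.4 to 14.6, and Rpa1 at 36.4 FPKM with the others at 38.1. Rfc2 in HA/Mg replicate 5 was high at 20.3 FPKM, with the others at 18.8 to 19.0 FPKM.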

How the results depend on the processing

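The members' median log2 change stayed negative under all 20 alternatives, -0.209 to -0.097, and no member was called higher in any. Main counts were 14 of 38 members lower, against 13.1% of all genes, and 1842 genes changed in either direction. Without a filter on low values 4 of 39 members were lower, against 2.57% of all genes, and 808 genes changed in either direction. Median-of-ratios scaling left 7 members lower, against 10.2% of all genes, and quantile normalization 10 members, against 11.7%. Equal sums gave 17 members lower, against 15.2% of all genes. Array weights gave 19 members lower, against 24.4% of all genes, with 3532 genes changed in either direction. With length and GC trends removed 3 members were lower, against 3.78% of all genes, and 647 genes changed in either direction. The 13 subunit pairs without overlap became 6. When library means were also kept, a setting added after the data were seen, 8 members were lower, against 5.89% of all genes. In that setting 783 genes changed in either direction. Leaving out each library gave 1 to 17 members lower, against 3.16% to 24.1% of all genes. In either direction 429 to 3320 genes changed. Same-numbered TABS and HA/Mg libraries deviated with correlations of -0.275 to 0.128, and differently numbered ones with -0.251 to 0.382. The labels do not say whether the numbers pair the samples, and such correlations cannot show how cultures were set up. With the replicate block 0 members and 0 genes were called by limma (smallest adjusted p = 0.0602 among members and 0.0589 among all genes). There 18 members had an unadjusted p under 0.05, again with no share of all genes to set beside it. With the block plus removal of length and GC trends the calls were likewise 0 and 0. The cause of these moves was not tested.

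Of 758 member results under alternatives, 579 kept direction and call, 129 lost the call, 16 gained it and 34 changed sign, all in members not called. With equal sums the log2 change was -0.021 for Mcm5, -0.009 for Pold1, -0.025 for Rfc2 and -0.044 for Ccne1. Median-of-ratios scaling gave 0.006 for Pola2, 0.025 for Rfc5, 0.009 for Lig1 and 0.008 for E2f1. Quantile normalization gave -0.001 for Mcm5, 0.026 for Pola2 and 0.025 for Rfc5. Removal of length and GC trends, with or without the replicate block, gave 0.046 for Pola2, 0.034 for Prim2, -0.033 for Pold1 and -0.035 for Ccne1. With library means kept it gave -0.013 for Mcm5, 0.001 for Pola2, -0.078 for Pold1 and -0.080 for Ccne1. Leaving out 1 library gave -0.008 to 0.078 for Mcm5, -0.007 to 0.062 for Rfc2, -0.056 to 0.011 for Rfc5, -0.107 to 0.014 for Lig1, -0.027 to 0.038 for Ccne1 and -0.120 to 0.057 for E2f1.

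With 4 libraries a group, changes as small as those of the MCM subunits lay near the threshold. Genes that reached 1 FPKM in fewer than 4 libraries, such as Ccne2, were not tested. Depth is an estimate, and counting errors cover counting only.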

Other observations

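Among the cell-cycle genes that are not members, a few also had libraries of the same group at very different levels, chosen here after their values were seen. Ccnd3, a cyclin D, had 14.6, 5.14, 17.2 and 6.16 FPKM in TABS replicates 5 to 8, against 14.4, 12.9, 10.6 and 13.2 FPKM in HA/Mg replicates 5 to 8 (limma adjusted p = 0.432). TABS replicates 6 and 8 were low and replicates 5 and 7 were not, a different split from that of Fen1, where replicate 5 alone was high. Cdkn2d, an inhibitor of the cyclin D kinases, had 10.1, 9.66, 10.1 and 10.9 FPKM in TABS libraries, against 16.8, 16.7, 10.0 and 11.1 FPKM in HA/Mg libraries (limma adjusted p = 0.127). There HA/Mg replicates 5 and 6 stood above all other libraries.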
